A study of Mus musculus with 183 samples.

Results

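Mouse embryonic stem cells (mESCs) express a pair of related helicases that feed RNA to the exosome, and the comparison described here set the binding of the nuclear one, MTR4, against that of the cytoplasmic one, SKIV2L, on every mRNA. Binding was measured by CRAC (crosslinking and analysis of cDNAs), in which UV light fixes a tagged protein to the RNA it touches and the RNA fragments are sequenced. For each mRNA the deposited table gives the relative binding of MTR4, SKIV2L and the 5'-3' exonuclease XRN1, that is each protein's share of their summed CRAC counts after scaling to equal totals. The measure used throughout is the log2 of the MTR4 share over the SKIV2L share, called the log2 ratio, so that a positive value means relatively more MTR4 and a negative value relatively more SKIV2L. All 7240 mRNAs of the table, of 7240 in all, had a ratio. For some comparisons the ordered mRNAs were split into 10 equal groups of 724, and the outermost groups are called the SKIV2L-leaning decile and the MTR4-leaning decile.

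The CRAC data came from 3 MTR4 libraries and 6 SKIV2L libraries of the 183 samples of the series, all from untreated mESCs. The MTR4 line carried Cre-ERT2 and BirA-V5 at Rosa26 and a 3xFlag-Avi tag on both copies of Mtr4, whose gene symbol is Skiv2l2. The SKIV2L line carried Cre-ERT2 and BirA-V6 at Rosa26 and a 3xFLAG-Avi tag on both copies of Skiv2l, and was 1 clone. BirA-V6 is the spelling of the sample labels for this line and for clone 7E, described below, whereas the study's list of cell lines gives BirA-V5, and the difference was not resolved here. Both proteins were tagged at the N terminus, and the replicates were repeat experiments on the same tagged line. All MTR4 libraries were made with the long protocol and RIPA lysis, whereas the SKIV2L libraries mixed the long and short protocols and RIPA and TN150+NP40 lysis, so protein, line and protocol cannot be told apart in the ratio. The libraries were pooled before deposit, together with 3 published MTR4 libraries. A ratio therefore has no replicate error here and the depth behind it is unknown. RNA levels are RPKM (read counts scaled to gene length and library size) in the tagged lines, given as the median over lines.

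RNA decay was measured in 47 libraries of 2 further mESC clones. Clone 5F carried Skiv2l fl/fl and Cre-ERT2 at Rosa26. Clone 7E was Aven-/- with both Skiv2l copies tagged, Cre-ERT2 and BirA-V6 at Rosa26, and, by the labels of its RNA-seq samples, Skiv2l fl/fl. Both were sampled at day 0 and day 4 of 4-hydroxytamoxifen (4OHT), which activates Cre to remove Skiv2l exons, after a mock treatment (0 min) or after 120, 240 or 360 min of actinomycin D, which blocks transcription. Each combination had 3 libraries, except the 120 min samples of clone 5F at day 0, which had 2. By the study's methods these replicates are technical, so p-values measure only the spread between such libraries, and each genotype was 1 clone. Total counts ranged from 24440935 to 34114250 per library. In the 12 mock libraries the embryonic stem cell markers Pou5f1, Nanog, Sox2, Esrrb and Zfp42 lay between 220 and 976 CPM (counts scaled to library size). Of the markers of other cells, Gata6 reached 14.0 CPM, Sox17 11.7 and Col1a1 2.64, and T and Cdx2 stayed at or under 1.49.

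The exosome is the main 3'-5' RNA-degrading machine of the cell and works in both compartments. In the nucleus MTR4 unwinds RNA for it and joins adaptor complexes, among them one with the zinc finger protein ZFC3H1 that handles polyadenylated nuclear RNA. In the cytoplasm SKIV2L does so within the Ski complex, with the scaffold TTC37 and with WDR61, and the Ski complex acts on mRNAs that are being translated.

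Replication-dependent histone mRNAs belong to the mRNAs whose 3' end is itself part of the biology, because they end in a conserved stem-loop in place of a poly(A) tail. The stem-loop is shown for 8 of them, chosen along the range of the log2 ratio. The sequences are from the Gencode M21 transcripts of GRCm38, read 5' to 3' on the sense strand, and the capitals mark the 16-nt motif GGCNCTTTTNAGNGCC, with 5 flanking bases on each side in lower case.
Hist1h3c: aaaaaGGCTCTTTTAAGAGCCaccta
Hist1h4f: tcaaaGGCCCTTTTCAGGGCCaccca
Hist1h2ab: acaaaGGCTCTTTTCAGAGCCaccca
Hist2h2ac: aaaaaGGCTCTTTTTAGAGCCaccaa
Hist1h1c: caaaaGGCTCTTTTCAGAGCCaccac
Hist1h2bb: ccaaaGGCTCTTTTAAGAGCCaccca
Hist2h4: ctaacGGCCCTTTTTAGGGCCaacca
Hist1h4n: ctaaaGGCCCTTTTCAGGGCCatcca
In these 8 transcripts the motif began after the coding sequence, for example at base 541 of Hist1h3c, whose coding sequence ended at base 516. The annotated transcripts did not all end near the motif. It ended at base 399 of 430 in Hist1h4n but at base 373 of 1630 in Hist2h4. Only the transcript strand was searched, and the motif overlaps no other motif searched.

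The motif was present in 33 of the 50 replication-dependent histone mRNAs (66.0%), in 1 of 6661 other mRNAs and in 0.507% of all 6711 mRNAs whose transcript could be matched. The log2 ratios of the mRNAs shown were -2.67 for Hist1h3c, -2.16 for Hist1h4f, -1.94 for Hist1h2ab, -1.42 for Hist2h2ac, -1.27 for Hist1h1c, -0.84 for Hist1h2bb, -0.74 for Hist2h4 and 1.20 for Hist1h4n. Nearly identical stem-loop sequences thus stood beside ratios on both sides of 0. The median was -1.27 with the motif and -1.14 in the 17 histone mRNAs without an exact match, a smaller gap than the range within either set. Across the family Hist1h2af was lowest at -4.55 and Hist2h2be highest at 3.50. Histone genes have near-identical copies that can share reads, which leaves values for individual members uncertain.

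Over all 7240 mRNAs the log2 ratio had a median of 0.32, quartiles of -0.66 and 1.23, and a range from -4.67 to 6.35. It exceeded 1, a doubling in favour of MTR4, in 2219 mRNAs (30.6%). It was under -1, the same margin in favour of SKIV2L, in 1257 mRNAs (17.4%), and 3764 mRNAs (52.0%) lay between. The position of 0 depends on the scaling of the pooled datasets to equal sums, so the spread around the median carries more than the sign. Exact ties were common: 5638 mRNAs shared their ratio to 9 decimals with another mRNA, and the commonest value, 0.03, was held by 126. Ties took in 90.7% of mRNAs in the lowest quintile by RPKM and 50.4% in the highest, so the ratio was coarser among mRNAs of low level. The SKIV2L-leaning decile ended with Cc2d2a and the next mRNA was Hnrnpd, both at -1.45. At the other end Unc13a was the last outside and Cnppd1 the first inside the MTR4-leaning decile, both at 2.14.

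The 10 lowest and the 10 highest log2 ratios are given first. Among the 5193 mRNAs that reached 10 RPKM and had a transcript of 500 nt or more, replication-dependent histones left out, the lowest was Rps18 (chr17:33951999-33956001, minus strand, GRCm38), which encodes a protein of the small ribosomal subunit. Its relative binding was 0.0305 for MTR4, 0.776 for SKIV2L and 0.193 for XRN1, a log2 ratio of -4.67. Psma3, a proteasome subunit, followed at -4.43, with 0.0410 for MTR4 against 0.881 for SKIV2L. Sparc, a secreted matrix protein, stood at -4.13 and the actin-binding Tagln2 at -3.89. The homeobox gene Rhox5 had -3.74, the membrane protein gene Ifitm3 -3.46, the RNA-binding Hnrnpa3 -3.41 and the initiation factor gene Eif3m -3.31. Rps15 and Atpif1, which encodes the inhibitor of the mitochondrial ATP synthase, closed the 10 at -3.31 and -3.30. Their half-lives in clone 5F at day 0 ran from 342 min (Hnrnpa3) to 773 min (Rhox5), all above the 305 min median of all mRNAs.

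The opposite end was more mixed. The highest mRNA was 2410002F23Rik (chr7:44246722-44252319, plus strand), with 0.968 of its relative binding on MTR4 and 0.0119 on SKIV2L, a log2 ratio of 6.35. Rpl31, which encodes a protein of the large ribosomal subunit, came next at 4.59, so ribosomal protein mRNAs stood at both extremes. The replacement histone mRNA H2afj stood at 4.50, Pigf, whose product acts in GPI anchor synthesis, at 4.48 and Zfp961 at 4.42. Nabp1, whose product binds single-stranded DNA, had 4.33 and Lsm10, whose product is part of the U7 snRNP that processes histone mRNA, had 4.24. The remaining 3 of the 10 were mitochondrially encoded: mt-Nd1 at 4.36, mt-Nd6 at 4.33 and mt-Nd4 at 4.25. Half-lives of these 10 ran from 98.4 min (mt-Nd1) to 605 min (Rpl31), and 8 of them had values under 240 min.

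Mitochondrially encoded mRNAs had high log2 ratios without exception. No untagged control enters the ratio, so background reads and binding cannot be told apart for these mRNAs, which the nucleus does not encode. All 7 in the table had log2 ratios of 3.02 (mt-Co1) to 4.36 (mt-Nd1), above the 96th percentile of all mRNAs. SKIV2L took 0.0325 to 0.0769 of their relative binding and MTR4 0.515 to 0.779. Their RNA level moved with this, and its part was not tested. For example, mt-Co1 had 8583 RPKM in the MTR4 line and 6101 in the SKIV2L line, and mt-Nd6 had 239 and 112. The difference in RNA between lines had a Spearman correlation of 0.23 with the log2 ratio over 7236 mRNAs, and after the authors' correction for RPKM the 7 mRNAs kept log2 ratios of 2.53 to 3.61.

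Gene families were spread along the ratio. In 28 families the median log2 ratio ran from -1.82 to 1.32, and 5 families lay above the median of all mRNAs. The values below are medians and counts over members, with no test, to be read beside the 30.6% and 17.4% of all mRNAs past the same thresholds.

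**Figure D1:**
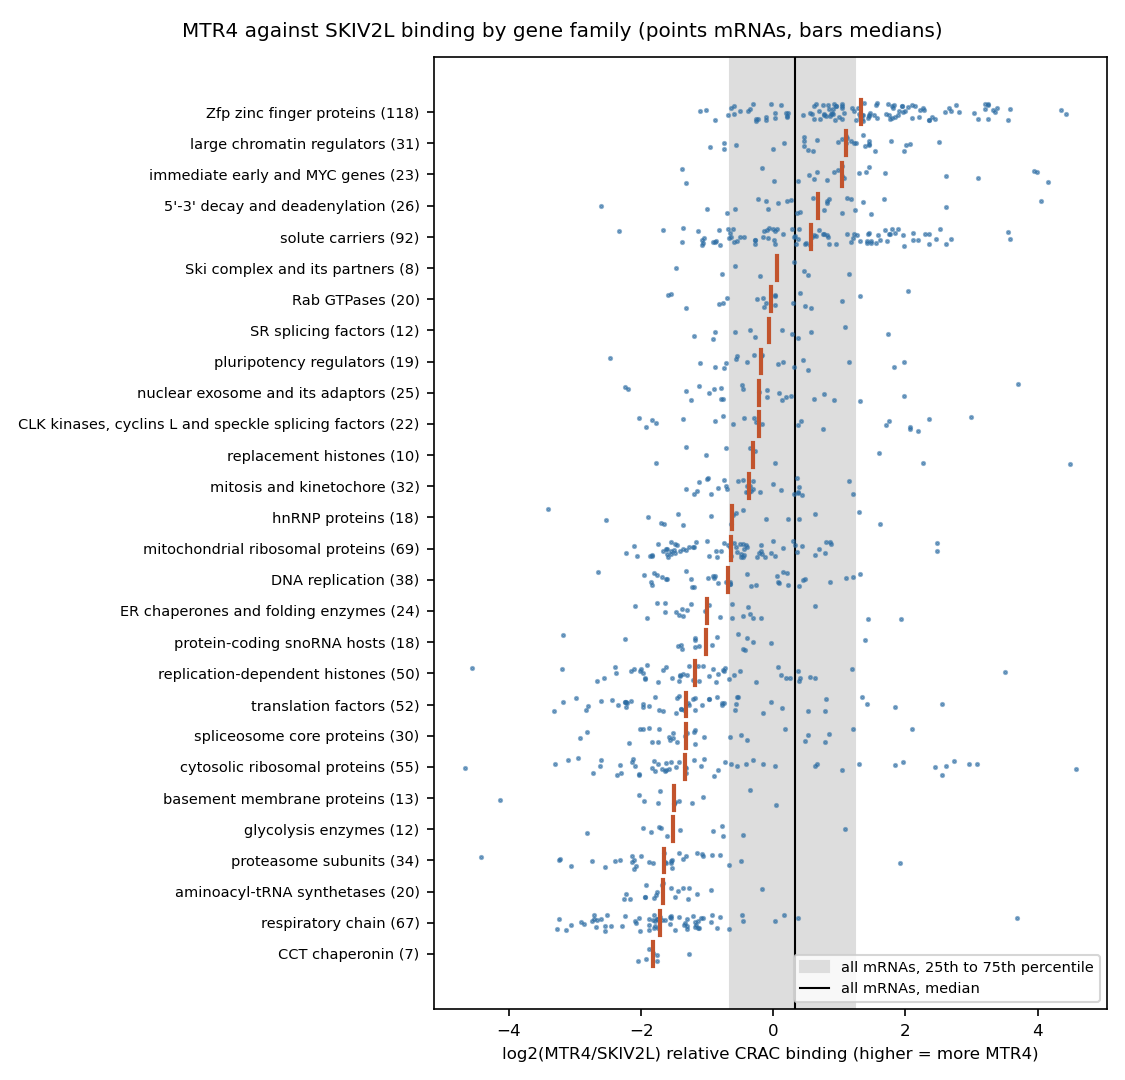
Log2 ratio of MTR4 to SKIV2L relative CRAC binding (x axis, log2 units) of each mRNA (points) in 28 gene families (rows, with the number of mRNAs), ordered by their medians (bars). The grey band spans the quartiles of all mRNAs and the line their median of 0.32, and families from the CCT chaperonin at -1.82 to the Zfp zinc finger proteins at 1.32 can be compared with it.

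Families that make, fold and degrade protein and those that supply energy leaned to SKIV2L. The CCT chaperonin, which folds actin and tubulin, had a median of -1.82, and its 7 mRNAs stood within a narrow range, from -2.04 (Cct5) to -1.27 (Tcp1), all under -1. Nuclear-encoded respiratory chain mRNAs had a median of -1.71, with 56 of 67 under -1. Their lowest member was Ndufa5, a subunit of complex I, at -3.27, and their highest Cox6b2, a cytochrome c oxidase isoform best known from testis, at 3.68. The 20 aminoacyl-tRNA synthetase mRNAs, which encode the enzymes that charge tRNAs, had a median of -1.68 and 18 under -1, from Tars at -2.26 to Dars at -0.17. Proteasome subunits had a median of -1.65 and 29 of 34 under -1. The highest of that name pattern, Psmc3ip at 1.92, encodes a recombination cofactor and no proteasome subunit.

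Glycolysis enzymes had a median of -1.51, from Hk1 at -2.82 to Gapdh at 1.08. Translation factors had -1.32, with 32 of 52 under -1, and spliceosome core proteins -1.32, with 20 of 30 under -1. Basement membrane proteins, which cells secrete as an extracellular sheet, had a median of -1.50, with 11 of 13 under -1. Besides Sparc they included Lamb1 at -2.03, Col4a1 at -1.96 and Fn1 at -1.43, and their highest was Agrn at 0.04. This family differed from the others that leaned to SKIV2L in having long transcripts (median 6615 nt) and a modest level (median 23.8 RPKM).

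Cytosolic ribosomal protein mRNAs were split. Their median was -1.33 and 33 of 55 were under -1, but 11 (20%) were over 1. This share was the largest among families with a median under -1, but smaller than the 30.6% of all mRNAs. Besides Rpl31 at 4.59 the 11 included Rps27a at 3.08, Rpl30 at 2.96, Rpl21 at 2.73, Rpl12 at 2.62 and Rps2 at 2.44. Rpl10a, in contrast, stood at -3.10 and Rpl32 at -2.95. Many ribosomal protein genes have processed pseudogenes that share reads with them, so the values of single members are uncertain. Mitochondrial ribosomal protein mRNAs had a median of -0.64 with 27 of 69 under -1, nearer to the median of all mRNAs.

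Replication-dependent histones, described above by their stem-loop, had a median of -1.18 with 28 of 50 under -1 and 2 over 1. Replacement histones, which are made outside S phase as well, had a median of -0.31 and ran from H2afy2 at -1.78 to H2afj at 4.50, with 3 of 10 past each threshold. H2afx, at -0.27, was the 1 mRNA outside the replication-dependent list that held the stem-loop motif. The linker histone mRNA H1f0 stood at 2.27 and H2afz at -1.33.

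The 5 families above the median of all mRNAs were Zfp zinc finger proteins, large chromatin regulators, immediate early and MYC genes, 5'-3' decay factors and solute carriers. Zfp zinc finger proteins, most of them DNA-binding repressors, had a median of 1.32, with 70 of 118 over 1 and 2 under -1. Zfp961 at 4.42 was their highest and Zfp42, a marker of naive pluripotency, their lowest at -1.10. Large chromatin regulators had a median of 1.10, with 18 of 31 over 1 and 0 under -1. Their highest member was the chromatin remodeller gene Chd9, the corepressor gene Ncor1 had 2.07 and the histone methyltransferase gene Kmt2a 1.97, and the lowest was Chd4 at -0.95. Immediate early and MYC genes had a median of 1.03, with 12 of 23 over 1. Dusp1, a phosphatase of MAP kinases, stood at 4.15, Egr1 at 3.94 and Btg2 at 3.09, against Myc itself at -1.38. Solute carriers, taken by name pattern, had a median of 0.57, with 36 of 92 over 1 and 9 under -1. The pattern also takes in genes that encode no transporter, among them Slc9a3r1 at -1.37.

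The mRNAs of the decay machinery were themselves spread along the ratio. The 5'-3' decay and deadenylation factors had a median of 0.68 and ran from Lsm4 at -2.60 to Cnot7, a deadenylase gene, at 4.05. The nuclear exosome and its adaptors had a median of -0.21, from Exosc7 at -2.25 to Zfc3h1, which encodes the partner of MTR4 named above, at 3.70. Among the remaining factors, Skiv2l had -1.48, Aven -0.78, Wdr61 -0.58, Skiv2l2, which encodes MTR4, -0.09, Xrn1 0.20 and Ttc37 0.46. RNA levels of both tagged genes differed between the lines: Skiv2l2 had 68.6 RPKM in the MTR4 line and 112 in the SKIV2L line, and Skiv2l had 13.7 and 7.10. With the RPKM-corrected ratio Skiv2l2 moved to 0.61 and Skiv2l to -2.42.

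Several further families had medians between -0.69 and -0.04. Rab GTPases, which direct vesicle traffic, had -0.04 with 3 of 20 past each threshold. Median log2 ratios were -0.07 for SR splicing factors, which ran from Srsf7 at -1.20 to Srsf5 at 1.73, and -0.22 for CLK kinases, cyclins L and speckle splicing factors, which ran from Ccnl1 at -2.04 to Mat2a at 2.99. hnRNP proteins had -0.63, from Hnrnpa3 at -3.41 to Hnrnpf at 1.62. Pluripotency regulators had -0.19, from Dppa5a at -2.47 to Fgf4 at 1.98, with Nanog at 0.31, Sox2 at 0.45 and Pou5f1 at -0.88. Mitosis and kinetochore mRNAs had -0.38, from Ndc80 at -1.33 to Cenpk at 1.20, and DNA replication mRNAs had -0.69, from Fen1 at -2.65 to Gins1 at 1.31.

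Of the properties compared, RNA level was the most closely related to the ratio. The Spearman correlation between the log2 ratio and median RPKM was -0.58 over 7240 mRNAs, across genes that share libraries, depth and mapping and are not independent replicates. From the lowest to the highest quintile by RPKM the median log2 ratio went from 1.47 through 0.77, 0.34 and -0.06 to -0.94. In the lowest quintile 64.9% of mRNAs were over 1 and 2.83% under -1, and in the highest quintile 5.32% and 46.9%. The relation was present within quintiles of half-life (correlations of -0.62 to -0.44) and of transcript length (-0.56 to -0.45). Ties were also commonest at low RPKM, and their part in this relation was not tested. The authors kept mRNAs with a low count minimum for every protein and a higher minimum for any of them. An mRNA of low level can thus enter the table through the protein with its highest count. The part of this filter was not tested either, and with a median RPKM of at least 5 the correlation was -0.51.

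Longer mRNAs leaned to MTR4, but much less among mRNAs of like level. The correlation with transcript length was 0.30, with 0.23 for the 5' UTR, 0.15 for the coding sequence and 0.26 for the 3' UTR. Within RPKM quintiles the correlation with transcript length ranged from -0.05 in the lowest to 0.23 in the highest. In the highest RPKM quintile the median log2 ratio was -1.13 for the shortest quintile of transcripts and -0.20 for the longest. In the lowest RPKM quintile the order was turned around, at 1.75 for the shortest and 1.40 for the longest.

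**Figure D2:**
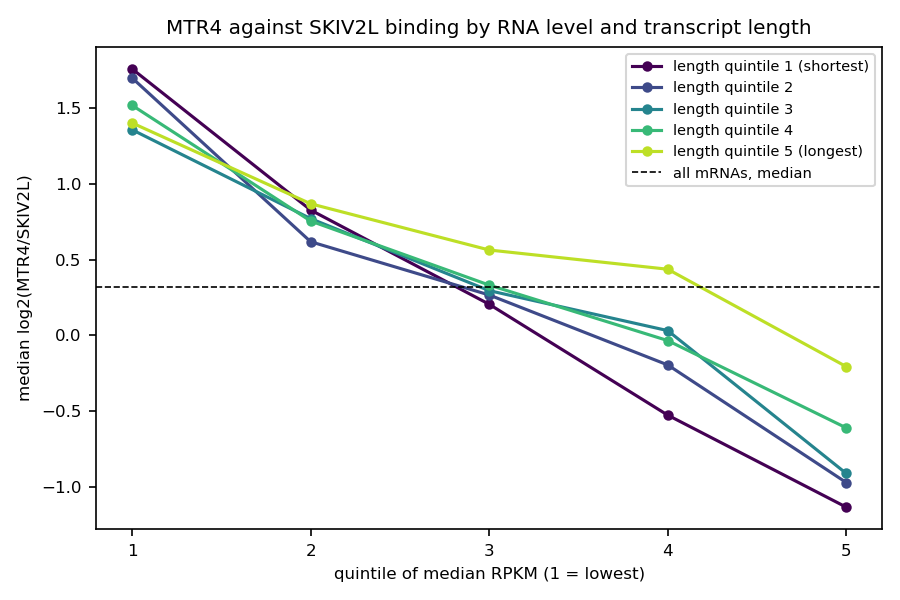
Median log2 ratio (y axis) of mRNAs grouped by quintiles of median RPKM (x axis) and of transcript length (lines), with the median of all mRNAs dashed. Every line falls from left to right, and the lines spread in the highest RPKM quintile, from -1.13 for the shortest to -0.20 for the longest transcripts.

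Families were also set against mRNAs of like level, by taking each member's difference from the median of its RPKM quintile. Basement membrane proteins then lay lowest, at a median difference of -1.85 with 13 of 13 members below. Proteasome subunits had -0.98 (30 of 34 below), CCT mRNAs -0.88 (7 of 7), respiratory chain mRNAs -0.87 (58 of 67), aminoacyl-tRNA synthetases -0.83 (18 of 20) and replication-dependent histones -0.80 (38 of 50). Zfp mRNAs lay highest at 0.68, with 84 of 118 above. CLK kinases, cyclins L and speckle splicing factors followed at 0.66, with 15 of 22 above. The 5'-3' decay and deadenylation factors lay at 0.56, with 18 of 26 above. Large chromatin regulators, at 0.45 with 19 of 31 above, and immediate early and MYC genes, at 0.21 with 13 of 23 above, lay closer to mRNAs of their level than their plain medians did. Solute carriers hardly differed from mRNAs of their level, at 0.03 with 48 of 92 above and 44 below.

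Genes with few exons leaned to MTR4. Single-exon mRNAs, with replication-dependent histones left out, had a median log2 ratio of 2.07, and 105 of 130 (80.8%) were over 1, beside 30.6% of all mRNAs. The median was 1.11 for 268 mRNAs with 2 exons, 0.58 for 305 with 3, 0.18 for 2384 with 4 to 9, 0.22 for 2344 with 10 to 19 and 0.44 for 1230 with 20 or more. The value for single-exon mRNAs was little changed, at 2.03, when 7 mitochondrially encoded mRNAs were left out. Single-exon mRNAs were of lower level (median 8.03 RPKM), so they were set against other mRNAs of their RPKM quintile. From the lowest quintile upward the medians were 2.60 against 1.44, 1.81 against 0.76, 1.82 against 0.34 and 0.57 against -0.06. In the highest quintile 7 of the 11 single-exon mRNAs were mitochondrially encoded, and the median was 3.47 with them and 0.31 for the other 4, against -0.92. Exons per kb of transcript had a correlation of -0.33 over 6711 mRNAs and of -0.25 to -0.12 within RPKM quintiles, whereas exon number (-0.03) and GC content (0.04) had almost none over all mRNAs.

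The outermost deciles summarise these differences. The SKIV2L-leaning decile had a median RPKM of 80.2 and the MTR4-leaning decile of 5.62. Median transcript length was 1882.5 nt against 3578 nt, 3' UTR length 418 nt against 1344.5 nt, and exons per kb 5.11 against 2.34. Single-exon transcripts made up 2.82% and 9.58%, and replication-dependent histones numbered 18 and 1. Among the other CRAC readouts, AVEN relative binding had a correlation of -0.33 with the log2 ratio and medians of 0.331 and 0.173 in these deciles, while XRN1 relative binding had a correlation of -0.06 over all mRNAs that ran from -0.44 in the lowest to 0.25 in the highest RPKM quintile. XRN1 enters the same sum as MTR4 and SKIV2L, and AVEN comes from the same table, so neither is an independent measure.

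**Figure D3:**
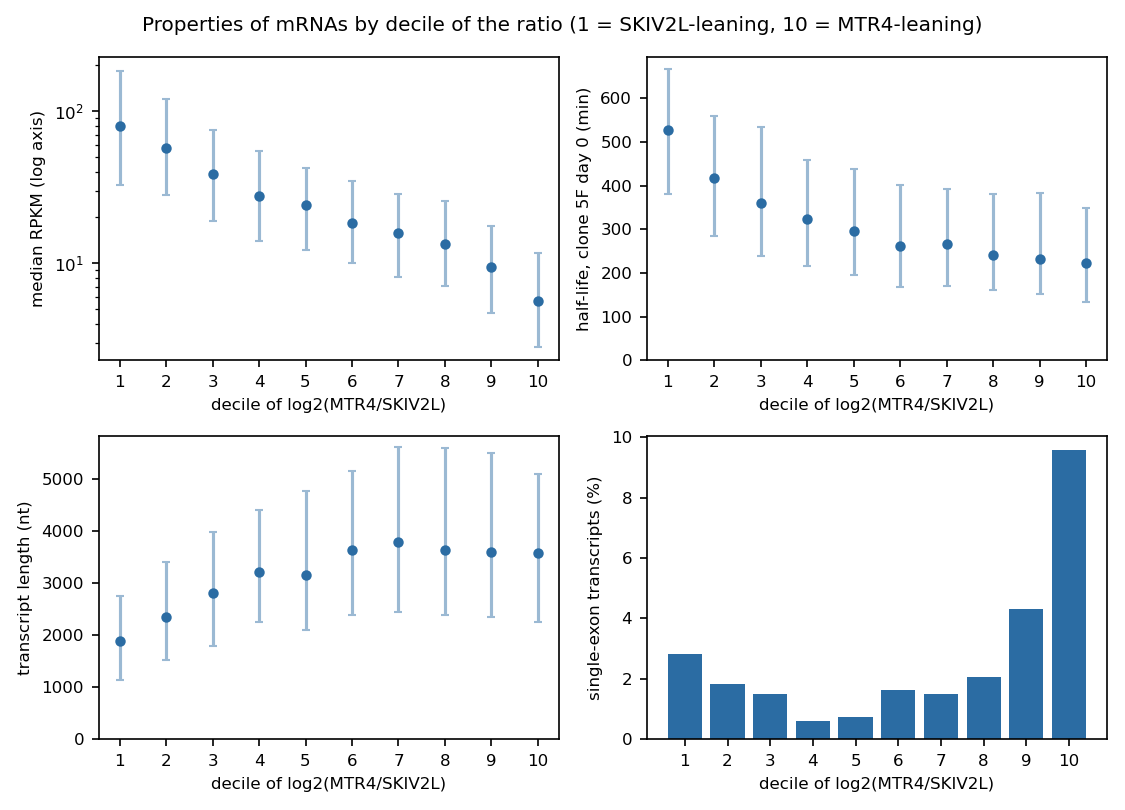
Median RPKM (log axis), half-life in clone 5F at day 0 (min), transcript length (nt), each with quartiles as bars, and the percentage of single-exon transcripts, for each decile of the log2 ratio (x axis, 1 SKIV2L-leaning, 10 MTR4-leaning, 724 mRNAs each). RPKM falls from 80.2 to 5.62 and half-life from 526 to 223 min, length rises from 1882.5 to 3633 nt by decile 6, and single-exon transcripts reach 9.58% in decile 10.

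mRNA half-life was measured in separate libraries and clones and was not used to form the ratio. In clone 5F at day 0 the median half-life was 526 min in the SKIV2L-leaning decile and 223 min in the MTR4-leaning decile, beside 305 min for all mRNAs. The correlation was -0.35 over 7219 mRNAs, of which 28 had a negative half-life because no decay was measured, and -0.34 in clone 7E. Within RPKM quintiles it ranged from -0.41 in the highest to -0.13 in the lowest. In the highest RPKM quintile the third of mRNAs with the lowest log2 ratio had a median half-life of 546 min and the third with the highest ratio 329 min. In the lowest RPKM quintile the same medians were 267 and 227 min. The direction was the same in the quintiles between, with 310 and 238, 370 and 238, and 430 and 259 min.

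Replication-dependent histones were an exception among families. They leaned to SKIV2L but had a median half-life of 48.6 min, far under the 526 min of the SKIV2L-leaning decile. Aminoacyl-tRNA synthetases (836 min) and respiratory chain mRNAs (679 min) had long half-lives, and Zfp mRNAs (131 min) and immediate early and MYC genes (80.7 min) had short ones.

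The RNA left after actinomycin D gives the same comparison library by library. It is the median over mRNAs with a mean of at least 50 counts at 0 min, which 722 of 724 mRNAs of the SKIV2L-leaning decile and 698 to 704 of the MTR4-leaning decile had. In clone 5F at day 0 and 360 min the SKIV2L-leaning decile retained 62.5, 62.2 and 64.6% of its mock level in the 3 libraries, and the MTR4-leaning decile 32.2, 31.6 and 30.4%. In clone 7E at day 0 the values were 54.1, 55.3 and 56.7% against 30.9, 29.0 and 28.8%. The deciles did not overlap in any group, and the SKIV2L-leaning decile retained more in 35 of 35 libraries, by a factor of 1.47 to 2.13. These factors are taken within a library and so do not depend on the spike-in scaling.

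The factor was also compared between the days of 4OHT. In clone 5F the factor at 360 min was 2.01 ± 0.10 (SD, n = 3) before and 1.91 ± 0.18 (SD, n = 3) after 4 days of 4OHT, and the libraries overlapped. In clone 7E it was 1.88 ± 0.11 (SD, n = 3) before and 1.56 ± 0.11 (SD, n = 3) after, and the libraries did not overlap. They did not overlap at 240 min in that clone either. At 120 min they did, with 1.66 to 1.84 before and 1.48 to 1.71 after. At 360 min the MTR4-leaning decile retained 29.6 ± 1.2% (SD, n = 3) before and 38.3 ± 1.9% (SD, n = 3) after in clone 7E. The SKIV2L-leaning decile retained 55.4 ± 1.3% (SD, n = 3) and 59.6 ± 1.3% (SD, n = 3). All mRNAs together retained 40.5 ± 0.4% (SD, n = 3) and 47.6 ± 1.4% (SD, n = 3). Unlike the factors, these percentages depend on the spike-in scaling. No test was made on these factors: an exact permutation test cannot go below a two-sided p of 0.10 with 3 against 3 libraries.

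**Figure D4:**
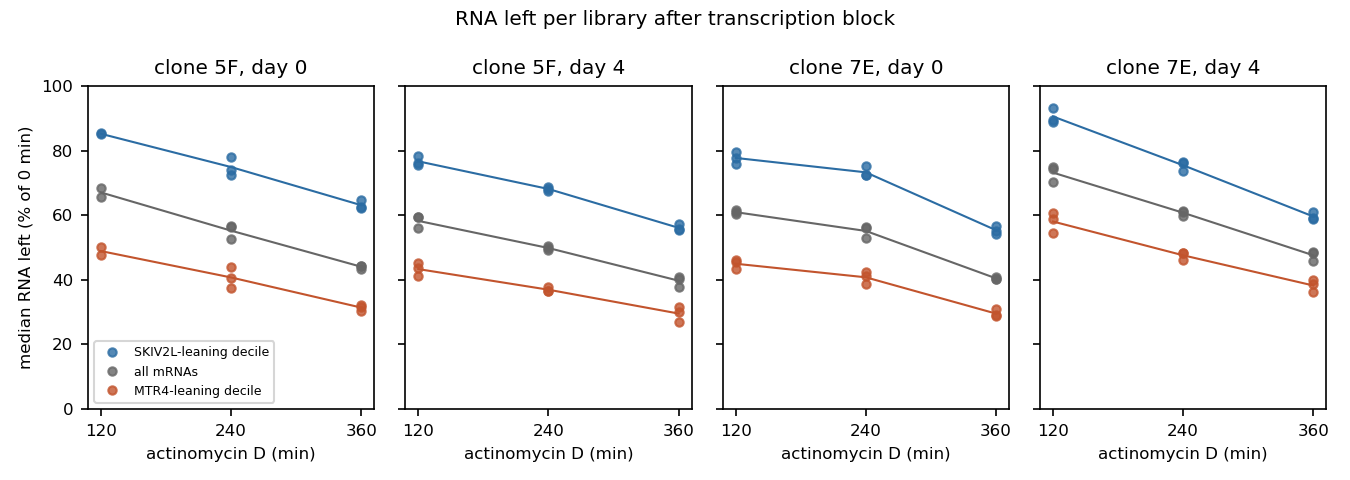
Median percentage of RNA left relative to 0 min (y axis) against minutes of actinomycin D (x axis) in each library (points) with means (lines), for the SKIV2L-leaning decile, all mRNAs and the MTR4-leaning decile, in each clone and day. The SKIV2L-leaning decile lies above the MTR4-leaning decile in all 35 libraries, for example 63.1% against 31.4% on average in clone 5F at day 0 and 360 min.

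Steady-state levels at day 4 against day 0 of 4OHT were compared in the mock libraries with edgeR's quasi-likelihood test. Skiv2l, the targeted gene, is itself in the SKIV2L-leaning decile. In clone 7E its level was 33.1, 35.4 and 30.8 CPM at day 0 and 13.9, 13.3 and 12.6 CPM at day 4, with no overlap and a log2 fold change of -1.32 (SE 0.075, edgeR adjusted p = 3.86e-12). In clone 5F it was 145, 146 and 147 CPM at day 0 and 154, 134 and 146 CPM at day 4, a log2 fold change of -0.00 (SE 0.049, edgeR adjusted p = 0.958). The libraries labelled day 4 of clone 5F thus showed no fall in Skiv2l, although Cre removes only some exons, which makes a gene-level count an incomplete check. Aven lay between 1.32 and 2.94 CPM in clone 7E, which is Aven-/-, and between 32.5 and 35.8 CPM in clone 5F.

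In clone 7E the mRNAs of the MTR4-leaning decile that changed were more often lower than higher, while those of the SKIV2L-leaning decile were more evenly divided, a difference that was not itself tested. Of 16333 genes tested, 3433 were higher (21.0%) and 3096 lower (19.0%) at day 4. In the MTR4-leaning decile 119 of 719 tested mRNAs were higher (16.6%) and 229 lower (31.8%), and the median log2 fold change was -0.07. In the SKIV2L-leaning decile 174 of 723 were higher (24.1%) and 157 lower (21.7%), and the median was -0.00. Among mRNAs that have a ratio, 21.8% were higher and 25.3% lower, so the SKIV2L-leaning decile was close to the mRNAs at large. The share that was lower was 22.7% in decile 6 and rose in each decile after it, through 25.0, 28.1 and 29.5%.

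These counts are relative to the bulk of the RNA in each library, and the share of ERCC spike-in RNA was not the same at both days in clone 7E. It was 0.310 to 0.320% of counts at day 0 and 0.640 to 0.659% at day 4. By the study's methods each sample received a set amount of ERCC RNA with the lysis buffer, and no cell count at harvest is given. ERCC totals thus scale to the RNA of a sample, so fewer cells and less RNA per cell cannot be told apart. Scaled to ERCC totals, the median log2 fold change over all genes in clone 7E was -1.10, 258 genes were higher and 14718 lower, and 97.9% of the MTR4-leaning and 98.9% of the SKIV2L-leaning decile were lower. On that scale the median was -1.18 in the MTR4-leaning and -1.10 in the SKIV2L-leaning decile. Other changes in clone 7E are given relative to the bulk of its RNA unless ERCC totals are named.

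The same counts were made in clone 5F. Of 16349 genes 2158 were higher (13.2%) and 1810 lower (11.1%). In the MTR4-leaning decile 84 of 719 were higher (11.7%) and 128 lower (17.8%), and in the SKIV2L-leaning decile 115 of 723 were higher (15.9%) and 135 lower (18.7%). Among mRNAs that have a ratio, 17.2% were higher and 16.1% lower. Clone 5F at day 0, replicate 3, weighed on these counts: without it 1118 genes were lower, 7.51% of the MTR4-leaning decile was higher and 11.3% of the SKIV2L-leaning decile lower. Scaled to ERCC totals, 1063 genes were higher and 2359 lower.

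**Figure D5:**
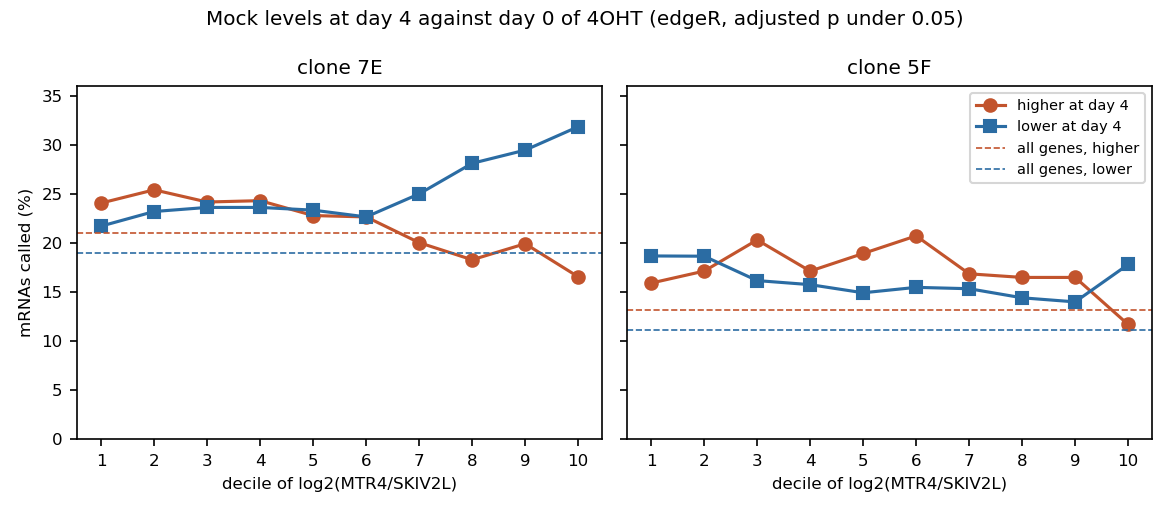
Percentage of tested mRNAs higher or lower at day 4 than day 0 of 4OHT (y axis, edgeR adjusted p under 0.05) in each decile of the log2 ratio (x axis) in clones 7E and 5F, with the share over all genes dashed. In clone 7E the lower share rises to 31.8% and the higher share falls to 16.6% in decile 10, and in clone 5F the lower share lies between 14.0 and 18.7%.

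The 3 largest called changes in each direction are given for each outermost decile. In clone 7E S100a6, a calcium-binding protein gene, went from 54.8, 52.1 and 52.0 CPM to 240, 228 and 218 CPM, a log2 fold change of 2.11 (SE 0.052, edgeR adjusted p = 6.73e-18). Plec, a linker of the cytoskeleton, rose by 1.50 and the stress gene Nupr1 by 1.61 on the log2 scale. Trh, which encodes thyrotropin-releasing hormone, fell by 0.96, and Upp1, uridine phosphorylase, fell by 0.97, which besides Skiv2l itself were the largest falls. In clone 5F Nfkbid, a regulator of NF-kB, went from 7.67, 7.95 and 6.58 to 22.6, 20.9 and 22.6 CPM, a log2 fold change of 1.58 (SE 0.083, edgeR adjusted p = 5.60e-11), and the histone mRNAs Hist1h2ak and Hist1h1d rose by 1.33 and 1.13. Trh fell by 0.51, Nif3l1 by 0.43 and Tgm2, a transglutaminase gene, by 0.42 in that clone.

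In the MTR4-leaning decile Chac1 and Slc1a4 were among the 3 largest rises in both clones. Chac1, a glutathione-degrading enzyme of the amino acid stress response, went from 2.82, 2.60 and 3.80 CPM to 21.7, 22.3 and 21.0 CPM in clone 7E (log2 fold change 2.82, SE 0.11, edgeR adjusted p = 6.02e-15). In clone 5F it went from 2.85, 2.61 and 2.49 to 9.47, 7.70 and 9.48 CPM (log2 fold change 1.75, SE 0.12, edgeR adjusted p = 4.36e-09). The neutral amino acid transporter gene Slc1a4 rose by 1.82 in clone 7E and 1.01 in clone 5F. The AP-1 factor gene Fosl2 rose by 1.52 in clone 7E, and Ryr1, a calcium release channel gene, rose by 0.79 in clone 5F. Developmental regulators were among those that fell in clone 7E: Sox1, a neural factor, went from 13.3, 15.6 and 13.7 to 2.74, 3.85 and 3.69 CPM (log2 fold change -2.04, SE 0.12, edgeR adjusted p = 5.55e-12), Nfatc4 fell by 1.34 and Zic5 by 1.19. In clone 5F B3galnt2, Bcl2l2 and E2f2 fell by 0.52, 0.53 and 0.55.

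The families were counted in the same fits, beside 13.2% of all genes and 17.2% of mRNAs with a ratio higher in clone 5F, and 21.0% and 21.8% in clone 7E. The shares lower were 11.1% and 16.1% in clone 5F, and 19.0% and 25.3% in clone 7E. Of the replication-dependent histones 48 of 50 rose in clone 5F (median log2 fold change 0.68), and 32 of 50 rose in clone 7E (median 0.30), with the others not called. With ERCC totals 47 were higher in clone 5F, beside 6.50% of all genes and 6.85% of mRNAs with a ratio. In clone 7E 1 was higher and 46 lower with ERCC totals. On that scale 90.1% of all genes and 98.9% of mRNAs with a ratio were lower in clone 7E. Basement membrane mRNAs were higher in 8 of 13 in clone 5F and in 9 of 13 in clone 7E, where 10 of 13 were lower with ERCC totals. Aminoacyl-tRNA synthetases were higher in 6 of 20 in clone 5F and in 11 of 20 in clone 7E, where 20 of 20 were lower with ERCC totals. These 3 families all leaned to SKIV2L. Respiratory chain mRNAs, which leaned the same way, had 21 of 67 lower and 1 higher in clone 5F, and 24 lower and 4 higher in clone 7E.

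Among families that leaned to MTR4, large chromatin regulators had 22 of 31 higher in clone 5F (12 with ERCC totals), and 8 higher and 4 lower in clone 7E, where 31 of 31 were lower with ERCC totals. Immediate early and MYC genes had 12 of 23 higher in clone 5F and 15 of 23 in clone 7E, with 2 lower in each. With ERCC totals 17 of 23 were lower in clone 7E, beside 98.9% of mRNAs with a ratio. Zfp mRNAs had 17 of 118 higher and 13 lower in clone 5F, and 15 higher and 32 lower in clone 7E.

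The mRNAs of the decay factors were compared last. Zfc3h1 fell by 0.45 in clone 7E and 0.36 in clone 5F on the log2 scale, and Ttc37 by 0.26 and 0.17. Wdr61 fell by 0.20 and 0.38. The call for Ttc37 in clone 5F was lost without day 0 replicate 3 (log2 fold change -0.15, edgeR adjusted p = 0.0729). Skiv2l2 had 326, 307 and 318 CPM at day 0 and 283, 304 and 274 CPM at day 4 in clone 7E, a log2 fold change of -0.14 (SE 0.047, edgeR adjusted p = 0.022). That call was lost without day 0 replicate 1 or 3 or day 4 replicate 1 or 3 (edgeR adjusted p of 0.0622 to 0.113), and with the replicate block (edgeR adjusted p = 0.0582). In clone 5F the log2 fold change of Skiv2l2 was -0.02 (SE 0.043, edgeR adjusted p = 0.795). Xrn1 had a log2 fold change of 0.23 (edgeR adjusted p = 0.00306) in clone 5F, which was 0.16 and no longer called with ERCC totals (edgeR adjusted p = 0.118). In clone 7E that of Xrn1 was 0.08 (SE 0.054, edgeR adjusted p = 0.252). With ERCC totals it was -1.02, beside a median of -1.10 over all genes in that clone. The log2 fold changes of Zfc3h1, Ttc37, Wdr61 and Skiv2l2 were negative with ERCC totals in both clones. In clone 7E that sign carries little, since 98.9% of mRNAs with a ratio were lower on that scale. In clone 5F they were -0.43 for Zfc3h1, -0.24 for Ttc37 and -0.45 for Wdr61 with ERCC totals. Skiv2l2 had -0.09 there (edgeR adjusted p = 0.356), beside a median of -0.08 over mRNAs with a ratio.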

How the data were processed

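The authors mapped CRAC reads with Bowtie2 2.3.4.1 to 1 transcript per gene (introns excluded), collapsed duplicates, pooled libraries per protein, scaled the pools to the smallest sum, kept mRNAs above count minimums and deposited each protein's ratio of the summed scaled counts. The 3 shares summed to 1 in 7240 mRNAs (tolerance 1e-06). The authors deposited RPKM of the tagged lines, a score for half-life (ln(normalized count + 1) against time) and raw counts per gene from STAR 2.5.0a on GRCm38, uniquely mapped and without strand, so overlapping genes can share reads. Their columns of CRAC and RNA-seq comparisons (log2 fold changes, adjusted p-values) and the table's own half-lives were not used, nor were other files. Columns of per-sample values left unused numbered 0.

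Counts were tested in R 4.3.3 with edgeR 4.0.16 (TMM, filterByExpr, quasi-likelihood, Benjamini-Hochberg under 0.05), only the 6 mock libraries of a clone entering each fit. DESeq2 1.42.0 gave alternatives and the size factors for RNA left, which used 1 spike-in factor per time point. On simulated data with 200 genes changed 2-fold, 199 were recovered in the clone 7E design (16038 genes, 12 false calls) and 197 in that of clone 5F (16114 genes, 8 false calls). These counts do not cover smaller changes. Replicate libraries differed beyond sampling noise (chi-square per gene at least 2.59). Transcript structure came from Gencode M21 (6711 mRNAs matched by ID and length).

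Members, families and tests were chosen with earlier results of these data known. Genes were named by rule: the 10 highest and 10 lowest ratios above the stated minimums, the extremes of each family, decay factors, and per decile the 3 largest called changes in each direction with a mean of at least 100 counts. Further family members were named after their values were seen. Alternatives for the ratio were the RPKM-corrected ratio, an RPKM minimum of 5, replication-dependent histones left out, Pearson correlation, and other half-lives and lengths. Those for the tests were DESeq2 size factors, ERCC totals, DESeq2's test, no count filter, a replicate block and each library left out. Other ratio classes (narrower outer classes, RPKM-corrected deciles) were also used. The interaction of clone and day was chosen after seeing the data.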

Additional observations from a re-analysis of the deposited data

Results flagged for a closer look

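The change at day 4 of 4OHT differed between the clones for 16 of the 21 genes named in the mock comparisons, by the interaction of clone and day in edgeR's quasi-likelihood test over the 12 mock libraries (2077 of 17209 genes differed in all). The differences are given as clone 7E minus clone 5F on the log2 scale. In the SKIV2L-leaning decile they were -1.31 for Skiv2l, 1.79 for S100a6, 0.82 for Nupr1, 0.60 for Plec, -0.74 for Upp1, -0.45 for Trh, -0.48 for Tgm2, -1.35 for Nfkbid, -0.68 for Hist1h2ak and -0.41 for Hist1h1d. In the MTR4-leaning decile they were -2.19 for Sox1, -1.35 for Zic5, -1.12 for Nfatc4, 1.42 for Fosl2, 1.07 for Chac1 and 0.82 for Slc1a4. Scaled to ERCC totals, 3 of the 16 turned sign (-0.20 for Nupr1, -0.43 for Plec and -0.21 for Slc1a4), and that of Chac1 shrank to 0.05. Clone and genotype cannot be told apart, since each genotype was 1 clone, and the genes were named for a large change in at least 1 of the clones, a choice that favours such differences.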

How the results depend on the processing

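The shares of mRNAs past either threshold and the correlations of the log2 ratio with RPKM and half-life moved little under every alternative run, and that with transcript length moved only with coding length in its place (0.15). With the RPKM-corrected ratio the family medians moved to -0.91 for replication-dependent histones, -0.93 for cytosolic and -0.52 for mitochondrial ribosomal proteins, -1.44 for the respiratory chain, -1.49 for proteasome subunits, -1.64 for CCT, -0.76 for ER chaperones and folding enzymes, -1.64 for basement membrane proteins, 1.12 for Zfp mRNAs, -0.85 for hnRNP proteins, -0.88 for protein-coding snoRNA hosts, -0.0083 for the nuclear exosome, 0.17 for the Ski complex, -1.46 for aminoacyl-tRNA synthetases, -1.76 for glycolysis, 0.91 for immediate early and MYC genes and 0.79 for large chromatin regulators. With a minimum of 5 RPKM they were 0.30 for solute carriers, 1.03 for Zfp mRNAs, 0.50 for 5'-3' decay and 0.86 for immediate early and MYC genes, and the Ski complex turned from 0.06 to -0.39 with 6 of its 8 mRNAs left. The remaining 34 of 56 family values stayed close. With ERCC totals in clone 7E 258 genes were higher and 14718 lower, as were 0.415% and 98.9% of the SKIV2L-leaning and 0.834% and 97.9% of the MTR4-leaning decile, and in clone 5F 1063 genes, 6.50% of the SKIV2L-leaning and 4.45% of the MTR4-leaning decile were higher. With each library left out, genes higher and lower numbered 2956 to 3463 and 2498 to 3091 in clone 7E and 1540 to 2132 and 1118 to 1805 in clone 5F. In the SKIV2L-leaning decile 19.6 to 24.9% were then higher and 14.8 to 21.6% lower in clone 7E, and 11.2 to 18.3% and 11.3 to 21.3% in clone 5F. In the MTR4-leaning decile these were 13.35 to 16.8% and 26.15 to 31.4%, and 7.51 to 11.1% and 12.9 to 16.0%, and the lowest values of clone 5F were those without day 0 replicate 3, except 11.2%, which was without day 0 replicate 1. The cause was not tested. Same-numbered libraries did not deviate together (correlations of -0.08 to 0.00), and the replicate block left 3207 genes higher and 2795 lower in clone 7E and 1714 and 1242 in clone 5F. The 24 changes named for the outermost deciles kept their direction and call under each alternative, while calls of decay factors that were lost stand beside their values. The ratio has no replicate error, its depth is unknown, and low mRNAs take few values.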
